A study of Mus musculus with 40 samples.

Results

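Hippo signalling was described through 9 mouse genes, namely the coactivators Yap1 and Wwtr1 (TAZ), the TEAD factors Tead1, Tead2, Tead3 and Tead4, the kinases Lats1 and Lats2, and the scaffold Amotl2. They were chosen by name out of 21938 protein-coding genes, and each locus was the GENCODE span of the gene with 5 kb upstream on build mm10. The data were ChIP-seq peak lists of H3K27ac, an acetylation of histone H3 found at active promoters and enhancers. Preadipocytes from inguinal white fat of C57BL/6 mice aged 8 to 12 weeks were either wild type (WT) or Hmgn1-/- and Hmgn2-/- (double knockout, DKO). HMGN1 and HMGN2 are proteins that bind nucleosomes. Cells of both genotypes were taken before induction (day 0) and on days 3, 6 and 9, with 3 libraries for each genotype and day and 24 in all. Induction used insulin, dexamethasone, IBMX, T3 and rosiglitazone for 4 days, after which insulin and T3 were kept for 4 days. The study describes the H3K27ac libraries as biological replicates. Neither it nor the labels say whether those of a group came from separate mice or cultures, so p-values measure the spread between these libraries.

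In the Hippo pathway, LATS1 and LATS2 phosphorylate YAP and TAZ, which are then held in the cytoplasm or degraded. Without that phosphorylation YAP and TAZ enter the nucleus and bind TEAD factors, which contact DNA and drive genes of adhesion, matrix and growth. In the mesenchymal lineage TAZ is known as a corepressor of PPARG, the master regulator of fat cells, and the pathway is known to act on the choice between progenitor and adipocyte.

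A pair of values was taken from each library. The covered length is the length in kb of a locus that lies under peaks. The q rank score is the percentage of peaks of the same library whose −log10 q is below that of the strongest peak in the locus, and it is 0 where the locus has no peak. It thus ranks a locus within its own library. The lists held 47448 to 115923 peaks that covered 20.7 to 96.4 Mb. Library DKO day 0 replicate 2 stood apart, with a narrowest peak of 440 bp against 155 to 165 bp elsewhere and the longest covered length, and WT day 3 replicate 3 was the shallowest, with 4.52 background reads per kb against 8.62 to 12.9. The 3 DKO libraries of day 6 covered 20.7 to 36.3 Mb and the 3 WT libraries of that day 55.5 to 60.4 Mb. Peak names numbered the samples anew within each day, and no label gives a batch, so any batch that followed the day cannot be told apart from it. The Hmgn2 locus had a peak in 12 of 12 WT and 0 of 12 DKO libraries, whereas the Hmgn1 locus had one in 12 of 12 libraries of each genotype. Summed covered length over 5 adipocyte markers went from 5.62 to 14.7 kb at day 0 to 39.1 to 57.8 kb at day 9. Over 5 leukocyte markers it went from 18.5 to 45.2 kb at day 0 to 6.12 to 10.3 kb at day 9, with no peak at Cd3e in any library, and over 4 endothelial markers from 4.62 to 13.3 kb to 1.49 to 4.03 kb, with none at Tie1. The part of this fall in the changes with day was not tested, and in such bulk samples fewer cells with a mark cannot be told apart from less of it per cell. Of the other lists, 2 of 4 brown fat markers rose with day (Ucp1 had no peak), as did 1 of 3 mesothelial markers, and of 5 preadipocyte markers 1 rose and 1 fell.

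Yap1 (chr9:7931999-8004596, minus strand) had H3K27ac peaks in 24 of 24 libraries, with a median of 6.64 kb of its 77.6 kb locus covered. The region over 6 of its 7 transcript starts was 4.34 kb long, was called in 24 of 24 libraries and held the strongest peak, with a median fold over background of 14.3. A start of the predicted gene Gm45494 lies under the same region. Covered lengths in WT were 4.78, 8.0 and 5.78 kb before induction, 6.57, 6.26 and 3.99 kb on day 3, then 8.81, 6.71 and 8.41 kb on day 6, ending with 7.75, 8.5 and 10.6 kb on day 9. Those in DKO were 5.06, 12.1 and 6.34 kb before induction, 3.99, 5.5 and 3.86 kb on day 3, then 5.89, 7.14 and 3.33 kb on day 6, ending with 13.1, 12.1 and 11.5 kb on day 9. The 3 DKO libraries of day 9 were thus the highest of their day, each above the 3 WT libraries, while at the other days the genotypes overlapped.

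Wwtr1 (chr3:57455649-57575910, minus strand), which encodes TAZ, had a longer covered length, with a median of 13.2 kb of 125 kb. Its promoter region of 5.79 kb lay over both annotated starts and reached a median fold of 17.6. A further 3 regions of the Wwtr1 introns, 62.5 to 106 kb from the start, were called in 24 of 24 libraries, with median folds of 9.09 to 11.1. WT libraries had 12, 13.3 and 11.1 kb covered before induction, and by day 6 had 18.8, 18.4 and 20.8 kb. DKO libraries had 9.79, 20.4 and 11.4 kb before induction, and by day 6 had 13.2, 12 and 7.66 kb. At day 6 the genotypes did not overlap, and DKO was lower by 43.4% in the mean. Of all genes 59.6% were lower in DKO without overlap at that day. Per covered Mb of the library the Wwtr1 means were 336 bp in WT and 358 bp in DKO, and the genotypes overlapped. At day 9 the genotypes overlapped in covered length, with 14.0, 18.9 and 16.6 kb in WT and 22.3, 18.9 and 18.5 kb in DKO.

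The 4 TEAD genes, which encode the DNA-binding partners of YAP and TAZ, had loci of different extent. Tead1 (chr7:112679318-112906807, plus strand) had the longest locus, 232 kb, with 75 merged regions, of which 4 were called in all 24 libraries. These 4 lay within 21.0 kb downstream and 1.42 kb upstream of its start, and the strongest reached a median fold of 15.2. Tead3 (chr17:28331671-28350817, minus strand) had 5 regions, of which one of 12.7 kb over the promoter was called in 24 of 24 libraries, and a median of 35.8% of its locus was under peaks. Tead2 (chr7:45215753-45233644, plus strand) had a single region of 1.67 kb, at its promoter, called in 21 of 24 libraries. That length is the one covered in DKO day 0 replicate 2, whose peaks are wide, and no other library covered more than 1.26 kb. Tead4 (chr6:128224288-128300823, minus strand) had a median of 1.26% of its 81.5 kb locus covered, the lowest share of the 9 genes. The q rank scores, which place a locus within its library, had medians of 95.7 for Tead1, 96.2 for Tead3, 70.2 for Tead2 and 68.0 for Tead4. Those of Tead2 and Tead4 ran from 0 to 86.8 and from 0 to 91.3, and those of Tead1 and Tead3 from 85.5 to 97.8 and from 86.5 to 98.6, so the order within either pair did not exceed the spread over libraries.

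Lats1 (chr10:7681214-7716460, plus strand) had its signal almost wholly in one promoter region of 3.0 kb, which also holds a start of the neighbour Pcmt1, a protein repair enzyme. Its covered length was narrow in range, from 1.62 to 2.87 kb, with a median fold of 17.8. Lats2 (chr14:57689662-57758388, minus strand) had 27 regions and a median of 10.9 kb, and 4 of its regions were called in all 24 libraries. At the outermost start of Lats2 the region was weak, called in 8 of 24 libraries, of which 4 were of day 0 and 4 of day 9. Beside it, from −3.24 to −0.518 kb relative to that start, lay a region of 2.73 kb that was called in 22 of 24 libraries with a median fold of 8.58. The regions with the highest median folds lay over 5 internal starts 10.9 to 14.9 kb downstream, with median folds of 12.3 and 13.5. The one at 10.9 to 12.7 kb also holds a start of Gm49361. Amotl2 (chr9:102716672-102733418, plus strand), whose protein binds YAP and keeps it out of the nucleus, lay under a single region of 29.1 kb. That region joins the peaks of the 24 lists, and single libraries had 2 to 8 peaks in the locus. It runs to 26.6 kb downstream of the start, past the end of the gene, and holds a start of Gm5627. A median of 74.8% of the Amotl2 locus was covered, and its q rank score was 97.3 to 100 in every library, the highest of the 9 genes by median (99.7). The plot of covered length by library gives every value.

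**Figure D1:**
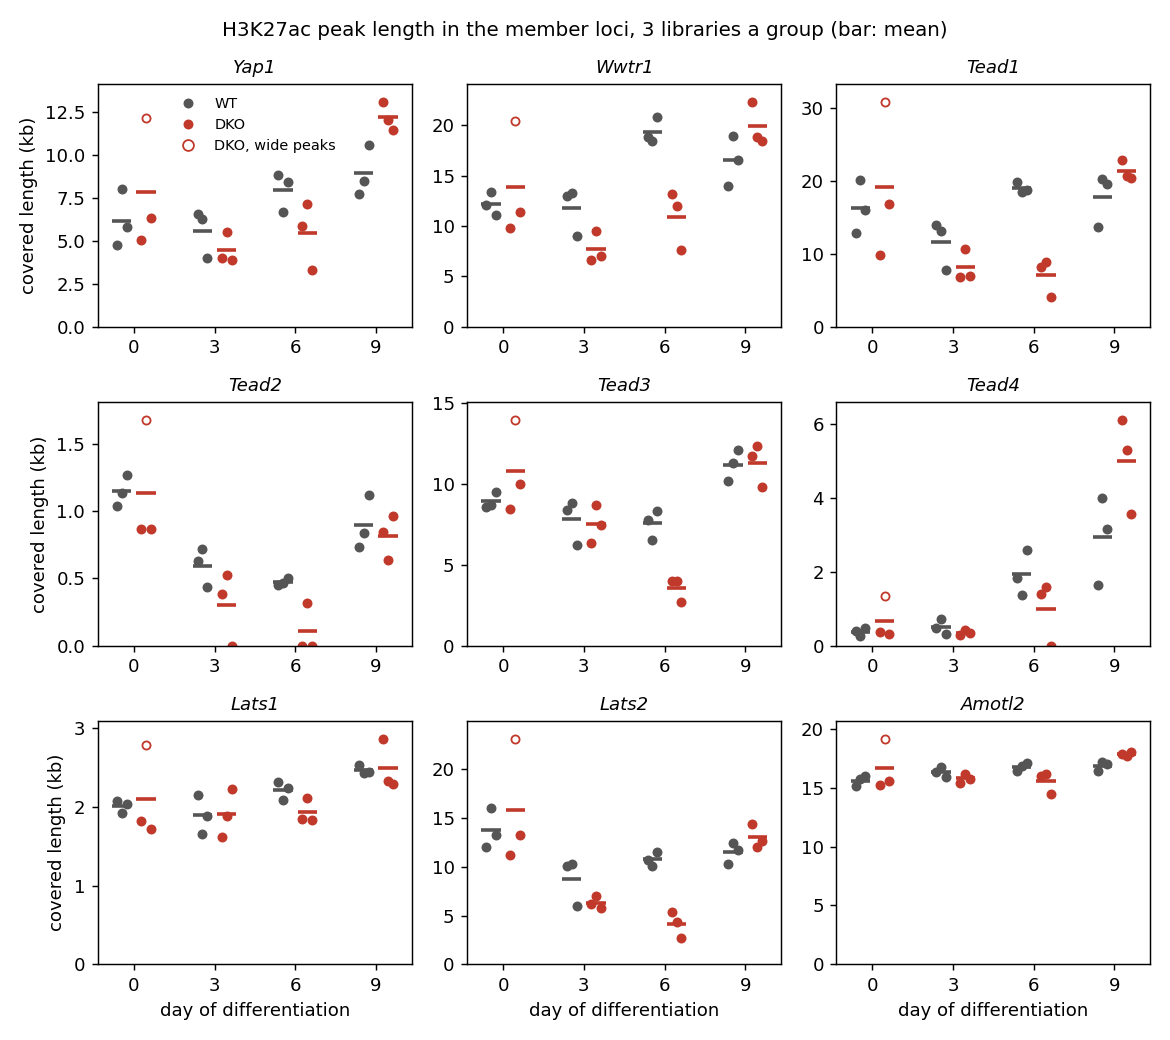
Covered length in kb (y axis) of each of the 9 loci by day of differentiation (x axis) for the 3 WT (grey) and 3 DKO (red) libraries of each day, with bars for group means and an open circle for DKO day 0 replicate 2, whose peaks are wide. Tead4 is near 0 until day 3 and highest at day 9, and in DKO all 9 genes rise from day 6 to day 9.

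The first comparison asked whether the loci gained or lost H3K27ac between the preadipocyte and day 9, over both genotypes. Tead4 rose and no other member passed the test on covered length. Its 6 libraries of day 0 had 0.259 to 1.35 kb, with a median of 0.373 kb, and its 6 libraries of day 9 had 1.64 to 6.11 kb, with a median of 3.79 kb. The groups did not overlap, the mean difference was 3.44 kb, and it was 2.56 kb in WT and 4.33 kb in DKO (exact permutation of day labels within genotype, two-sided p = 0.005, Benjamini-Hochberg adjusted p = 0.0203 over 15204 genes). Of all genes tested, 16.4% rose and 14.8% fell, so 1 of 9 members that rose and 0 that fell are not more than the shares over all genes. The value 0.005 is the smallest the design can give, 3742 genes had it, and at least 1521 genes must share it for any to pass.

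By q rank score 5 of the 9 members were higher at day 9 and none was lower, where 13.9% of all genes were higher and 8.83% lower. For Tead4 the score went from 19.8 to 63.9 at day 0 to 72.1 to 91.3 at day 9, a mean rise of 40.0 points. For Yap1 it went from 79.0 to 91.3 at day 0 to 94.0 to 98.2 at day 9, a rise of 9.84 points. Neither gene had a library of day 0 above any library of day 9. Tead1 rose by 4.31 points, Wwtr1 by 4.0 and Amotl2 by 1.24 (all 5 with exact permutation p = 0.005 and adjusted p = 0.0278). Higher at day 9 were thus both coactivators, a pair of TEAD genes and the scaffold. For Tead3 the change was 1.67 points (adjusted p = 0.262 by the same exact test), for Lats1 0.611 (0.734), for Lats2 0.459 (0.898) and for Tead2 −4.89 (0.146). The median change was 1.67 points over the 9 members and 1.02 over all genes.

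On covered length the median change was 1.38 kb over the members and 0.0386 kb over all genes, with 7 of 9 members above 0. Wwtr1 differed by 5.18 kb (exact p = 0.03, adjusted p = 0.0815), Yap1 by 3.56 kb (0.035 and 0.092), Tead1 by 1.83 kb, Tead3 by 1.38 kb, Amotl2 by 1.24 kb and Lats1 by 0.425 kb, while Lats2 and Tead2 had differences of −2.55 and −0.284 kb. The call of Tead4 was lost with only the 20000 strongest peaks of each library. Which other members passed depended on DKO day 0 replicate 2 and on scaling. Without that library, Yap1, Wwtr1, Tead3, Tead4, Lats1 and Amotl2 passed, 6 members, all higher at day 9. With covered length divided by the total of the library, 5 members passed, of which Yap1, Wwtr1 and Tead4 were higher and Tead2 and Lats2 lower. Lats2, by bp per covered Mb, was thus lower by 48.3 (adjusted p = 0.0148), and Wwtr1 higher by 79.5 (adjusted p = 0.0148), by the same exact test. The shares of all genes that passed without that library or with that scaling are not given here. These counts of 6 and 5 are therefore no result about the members.

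**Figure D2:**
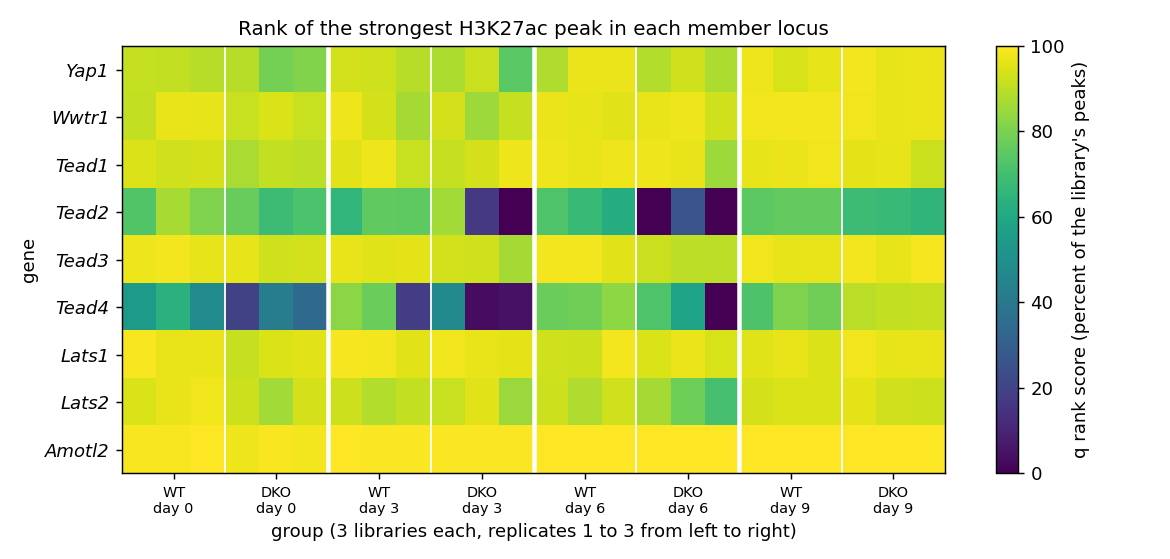
Colour gives the q rank score, the percentage of a library's peaks weaker than the strongest peak of the locus (scale 0 to 100), for each gene (rows) in each of the 24 libraries (columns, grouped by day and genotype). Amotl2 is at 97.3 or more throughout, while Tead2 and Tead4 hold the low scores, with 0 where a library had no peak.

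The steps between days are given for each genotype, and their difference was tested only as the change of the genotype difference with the day. From day 0 to day 3 covered length fell without overlap for Tead2 and Lats2 in WT (23.8% of all genes did so) and for Wwtr1, Tead2 and Lats2 in DKO (49.7%). From day 3 to day 6 it rose without overlap for Yap1, Wwtr1, Tead1 and Tead4 in WT (35% of all genes) and for 0 members in DKO (8.26%). From day 6 to day 9 it rose without overlap for Tead2, Tead3 and Lats1 in WT (10.4%) and for 9 of 9 members in DKO (72.1%). Each of these counts is set against the share over all genes because covered length moved in whole libraries: the total of the DKO libraries went from 20.7 to 36.3 Mb at day 6 to 61.2 to 68.8 Mb at day 9.

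The regions behind the change with day were sought by merging the peaks of the 24 lists, which gave 169358 regions, 195 of them in the 9 loci. A day 9 pattern, a call in at least 5 of 6 libraries of day 9 and in at most 1 of 6 of day 0, was met by 7 of the 195 regions, or 3.59%, against 5.4% of all regions. The reverse, a day 0 pattern, was met by 1 region, or 0.513%, against 3.11%. Of the 7 regions, 4 lay in Tead4, 1 each in Yap1, Wwtr1 and Tead1, and the day 0 region lay in Tead1. In Tead4 the 4 regions lay 17.5 to 26.1 kb downstream of the start, in introns, and one of them holds the start of an internal transcript. The region at 24.1 to 25.1 kb had no call in the 12 lists of days 0 and 3, was present in 3 of 3 WT and 2 of 3 DKO lists by day 6, and in all 6 lists of day 9. Its highest fold was 11.5 and its median fold 5.79, against a median of 7.64 for the promoter region, which was called in 23 of 24 libraries and at every day. The promoter region itself had folds of 4.32 to 6.27 in the 6 libraries of day 0 and of 8.09 to 13.7 in those of day 9. The regions that appeared with day in Tead4 were thus intronic, as the map of peaks by distance shows. The promoter region, present from day 0, had a higher fold in every library of day 9 than in any of day 0. At day 3 its folds were already 11.3, 8.97 and 4.75 in WT, and 5.32, 3.19 and 3.6 in DKO.

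**Figure D3:**
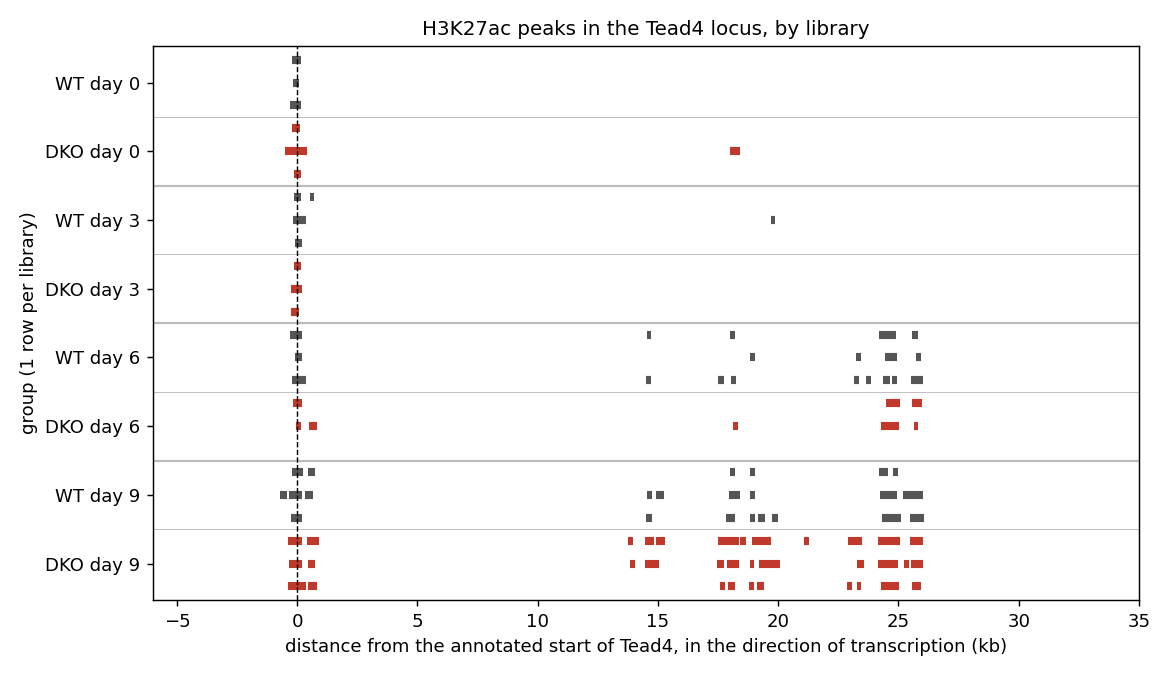
Peaks of each library (1 row each, grey WT and red DKO, grouped by day) in the Tead4 locus against distance in kb from the annotated start, drawn in the direction of transcription. Every row but one, a DKO library of day 6, has a peak at the start, and peaks between 13.8 and 26.1 kb appear in most libraries of days 6 and 9 but in 1 row of day 0 and 1 of day 3.

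The 300 bases around the strongest summit are shown for the regions with a day pattern, up to 3 for each gene and pattern, because their calls differ between the ends of the course. They did not set the q rank scores, which follow the strongest peak of a locus. All are on the plus strand of mm10 (read from the GRCm38.p6 sequence of RefSeq) and none overlaps an annotated exon. Capitals mark GGAATG or its reverse complement CATTCC, the core letters that TEAD factors bind. TGACTCA and its reverse complement TGAGTCA, the letters bound by AP-1, a frequent partner of TEAD, were searched too and are in none of them. TEAD letters are in 2 of the 7 windows, those of Wwtr1 and of the day 0 region of Tead1.
Tead4 24.1 to 25.1 kb downstream, day 9 pattern, chr6:128276183-128276482: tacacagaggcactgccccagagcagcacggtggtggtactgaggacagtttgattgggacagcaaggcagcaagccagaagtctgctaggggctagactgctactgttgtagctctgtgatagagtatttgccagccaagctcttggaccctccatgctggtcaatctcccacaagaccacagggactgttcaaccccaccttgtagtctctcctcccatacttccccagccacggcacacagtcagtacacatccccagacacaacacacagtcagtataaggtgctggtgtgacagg
Tead4 25.2 to 26.1 kb downstream, day 9 pattern, chr6:128274775-128275074: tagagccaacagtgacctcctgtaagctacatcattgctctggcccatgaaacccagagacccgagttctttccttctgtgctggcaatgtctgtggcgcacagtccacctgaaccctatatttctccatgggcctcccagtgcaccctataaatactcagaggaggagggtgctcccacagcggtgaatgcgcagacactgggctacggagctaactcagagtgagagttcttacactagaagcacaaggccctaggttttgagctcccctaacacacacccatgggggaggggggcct
Tead4 17.5 to 18.4 kb downstream, day 9 pattern, chr6:128282634-128282933: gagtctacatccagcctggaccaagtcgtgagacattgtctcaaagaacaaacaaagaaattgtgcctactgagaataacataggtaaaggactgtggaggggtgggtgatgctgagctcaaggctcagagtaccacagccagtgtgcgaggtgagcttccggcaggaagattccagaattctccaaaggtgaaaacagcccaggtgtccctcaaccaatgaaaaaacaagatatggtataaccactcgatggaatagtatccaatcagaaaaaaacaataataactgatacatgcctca
Yap1 intronic region, day 9 pattern, chr9:7991080-7991379: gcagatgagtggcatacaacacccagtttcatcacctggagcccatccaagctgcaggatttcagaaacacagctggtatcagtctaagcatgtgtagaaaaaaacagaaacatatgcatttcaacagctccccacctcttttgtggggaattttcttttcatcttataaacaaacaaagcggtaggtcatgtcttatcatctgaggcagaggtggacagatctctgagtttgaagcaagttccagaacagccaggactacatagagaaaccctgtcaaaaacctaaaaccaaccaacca
Tead1 intronic region, day 9 pattern, chr7:112758096-112758395: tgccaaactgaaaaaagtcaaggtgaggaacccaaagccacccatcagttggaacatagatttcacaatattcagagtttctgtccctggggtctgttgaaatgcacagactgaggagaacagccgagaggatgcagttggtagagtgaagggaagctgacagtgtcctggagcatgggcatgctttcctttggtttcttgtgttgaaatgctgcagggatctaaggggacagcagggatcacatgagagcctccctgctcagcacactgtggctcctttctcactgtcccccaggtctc
Wwtr1 upstream region, day 9 pattern, chr3:57578702-57579001: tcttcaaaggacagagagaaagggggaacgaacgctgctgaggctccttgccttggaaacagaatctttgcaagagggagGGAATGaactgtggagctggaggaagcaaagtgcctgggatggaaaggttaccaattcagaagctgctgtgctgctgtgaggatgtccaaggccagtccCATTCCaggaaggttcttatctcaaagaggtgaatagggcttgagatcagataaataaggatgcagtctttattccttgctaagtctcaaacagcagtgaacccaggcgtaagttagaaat
Tead1 intronic region, day 0 pattern, chr7:112764198-112764497: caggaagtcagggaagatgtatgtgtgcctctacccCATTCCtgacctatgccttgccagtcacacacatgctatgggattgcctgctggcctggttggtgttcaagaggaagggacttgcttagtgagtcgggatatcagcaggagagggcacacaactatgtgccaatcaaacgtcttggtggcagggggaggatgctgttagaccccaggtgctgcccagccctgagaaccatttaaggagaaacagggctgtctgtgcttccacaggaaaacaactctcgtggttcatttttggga

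The Wwtr1 region runs from −3.22 to −2.07 kb relative to the start. It had no call before day 6, when 2 of 3 WT and 1 of 3 DKO lists held it, and was present in all 6 lists of day 9. Its window holds the TEAD letters at 2 places. The Tead1 region of day 0 was present in 2 of 3 WT and 3 of 3 DKO lists before induction and in 1 of 6 lists at the end, and its window holds the letters once. Both regions were weak where called, with median folds of 4.68 at Wwtr1 and 4.04 at Tead1. The day 9 regions of Yap1 and Tead1 had 4.65 and 4.22. In that order the 4 regions outranked a median of 37.2, 20.4, 27.4 and 18.4% of a library's peaks. Calls this weak do not show that the mark was gained or lost. TEAD letters were in 16.7% of the windows of all 169358 regions, in 16.4% of those with the day 9 pattern and in 31 of the 195 member windows, or 15.9%. AP-1 letters were in 5.82% of all windows and in 7 of the 195, or 3.59%. The windows of the members' regions thus held neither motif more often than those of all regions, and a match of letters is no evidence of binding.

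The second comparison asked whether the genotypes differed over the 4 days. On covered length no member passed the test, and all 9 had an exact permutation p above 0.05 (160000 relabellings within days), with adjusted p from 0.515 for Tead2 to 1 for Amotl2. Over all genes 0.0263% were higher in DKO and 0.125% lower, 23 in all, with 1499 at an unadjusted p under 0.05, and limma called 72 genes and 0 members. The mean covered length of Tead2 was 0.778 kb in WT and 0.59 kb in DKO, that of Wwtr1 14.9 and 13.1 kb, and that of Yap1 7.18 and 7.49 kb. With covered length divided by the library total, Tead2 and Lats2 were lower in DKO, by 4.9 and 27.7 bp per covered Mb (adjusted p = 0.0141 and 0.0107 by the exact permutation). That scaling called 2262 genes, 61.8% of them higher in DKO, against 17.4% of the 23 without it.

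By q rank score Tead3 was lower in DKO. Its 12 WT libraries had scores of 95.2 to 98.3, with a median of 96.7, and its 12 DKO libraries 86.5 to 98.6, with a median of 93.0. The mean difference was −3.55 points, made of −3.17, −5.03, −6.79 and 0.777 points for days 0, 3, 6 and 9 in turn (exact permutation p = 0.00115, adjusted p = 0.0427). Over all genes the median differences for these days were −0.333, −1.03, −4.89 and 0.723 points. The score ranks a locus among called peaks, and at day 6 DKO lists held 47448 to 74867 peaks against 98503 to 105511 in WT. The part of list length in the difference was not tested. The lowest Tead3 scores were those of DKO libraries of days 3 and 6. The DKO libraries of day 9 had 98.4, 96.3 and 98.6, so the genotypes overlapped in range. The call was lost without DKO day 0 replicate 2 (adjusted p = 0.0574) and without WT day 3 replicate 3 (adjusted p = 0.0518), with differences of −3.4 and −3.56. Over all genes 0.158% were higher and 3.28% lower by this score, so 0 members higher and 1 lower were counted against 24 and 499 genes. All 9 members had a mean difference below 0, as had 75% of all genes, and the medians were −3.55 and −1.48 points.

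Tead2 came next, with the largest difference of the 9, −28.2 points (exact p = 0.00261, adjusted p = 0.0573), and did not pass. Its promoter region was present in all 3 WT lists of every day, but in 3, 2, 1 and 3 of the 3 DKO lists for days 0, 3, 6 and 9. At day 6 the WT libraries had 0.452, 0.468 and 0.503 kb covered and the DKO libraries 0, 0.318 and 0 kb. The strongest summit of Tead2 had 23, 20 and 19 reads in the WT libraries of day 6 and 13 in the only DKO library with a peak, over backgrounds of 1.62 to 1.94 reads. The 2 DKO libraries without a peak had 9.83 and 11.4 background reads per kb, against 9.81 to 11.2 in WT of that day. A missing call does not show that the mark is absent. Tead4 differed by −21.5 points in the mean (exact p = 0.0309, adjusted p = 0.185) and did not pass. Its differences were −23.3, −40.5, −35.9 and 13.5 points for days 0, 3, 6 and 9 in turn, so DKO was higher at day 9. Lats2 differed by −4.73, Yap1 by −4.41, Tead1 by −2.79, Wwtr1 by −1.5, Lats1 by −0.585 and Amotl2 by −0.333, none of which passed.

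Bases before the first exon of the 2 TEAD genes with the smallest p between genotypes by q rank score are printed from the RefSeq promoter table (GRCm38.p6), on the strand of the gene, with GGAATG or CATTCC in capitals. Of the 9 members, 7 were in that table.
Tead2, plus strand, chr7:45215542-45215752: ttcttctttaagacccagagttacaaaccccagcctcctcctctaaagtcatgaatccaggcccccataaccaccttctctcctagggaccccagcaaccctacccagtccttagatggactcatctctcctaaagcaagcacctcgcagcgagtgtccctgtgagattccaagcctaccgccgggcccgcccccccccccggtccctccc
Tead3, minus strand, chr17:28350818-28351055: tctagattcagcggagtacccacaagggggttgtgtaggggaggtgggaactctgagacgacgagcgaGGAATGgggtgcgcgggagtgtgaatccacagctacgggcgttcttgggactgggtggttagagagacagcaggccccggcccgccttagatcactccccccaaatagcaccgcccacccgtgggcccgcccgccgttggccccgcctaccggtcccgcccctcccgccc
The Tead3 stretch holds the TEAD letters once and that of Tead2 does not. Of the 250 bases before the start in all 32851 promoter sequences of the table, 12.6% held these letters and 4.46% those of AP-1. Of the 11 sequences of the 7 members, 6 held the TEAD letters, both of Wwtr1, those of Yap1 and Amotl2 and 2 of 3 of Tead3, and 0 held those of AP-1. The 3 entries of Tead3 held 1, 2 and 0 matches, and the one printed, at the outermost start, has 1. Entries of one gene may overlap, and no test was made.

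By day, covered length was lower in DKO without overlap at day 6 for 6 members, Wwtr1, Tead1, Tead2, Tead3, Lats2 and Amotl2, and higher for none. Of all genes 59.6% were lower and 0.0855% higher in this way, and with 3 libraries against 3 the smallest exact p is 0.1. Tead1 had 19.9, 18.6 and 18.8 kb in WT and 8.19, 8.92 and 4.15 kb in DKO, a difference of −12 kb or −62.8%. Lats2 had 10.7, 10.1 and 11.6 kb in WT and 5.39, 4.35 and 2.64 kb in DKO, and Tead3 had 7.79, 6.57 and 8.34 kb against 3.98, 3.98 and 2.71 kb. Amotl2, at 16.4, 16.8 and 17.1 kb against 16.0, 16.1 and 14.5 kb, differed by −7.48%, and its strongest peaks had folds of 30.1 to 38.0 in WT and 22.9 to 33.7 in DKO. The median change was −48.4% over the members and −36.2% over 14381 genes with a WT peak at that day.

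Because DKO covered less genome at day 6, the same values were set per covered Mb of the library. Then 2 members were lower without overlap, Tead1 and Lats2 (14.4% of all genes), and 3 were higher, Yap1, Lats1 and Amotl2 (37.8%). Tead1 and Lats2 were thus lower in DKO at day 6 on both scales, and Amotl2 changed direction with the scale. The means of Yap1, Wwtr1 and Lats1 changed direction too.

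At day 9 covered length was higher in DKO without overlap for Yap1, Tead1 and Amotl2 (29.3% of all genes) and lower for none (2.08%). Yap1 differed by 3.26 kb or 36.4%, Tead1 by 3.47 kb or 19.4% and Amotl2 by 1.02 kb or 6.04%. Per covered Mb, Yap1 remained higher without overlap (13.4% of all genes) and none was lower (13.5%). Tead4 had the largest percentage difference, 70.5%, with 1.64, 4.0 and 3.16 kb in WT and 6.11, 5.31 and 3.58 kb in DKO, and the groups overlapped. By q rank score they did not, with 72.1 to 80.8 in WT and 89.8 to 91.3 in DKO. Tead2 was lower in DKO by that score, with 74.7 to 76.0 in WT and 65.3 to 68.5 in DKO. The share of all genes without overlap by q rank score was not counted. In covered length no member was higher (18.4% of all genes) or lower (0.704%) without overlap at day 0. At day 3 none was higher (0.862%) or lower (10.8%). At day 0 the means of DKO rest on replicate 2: for Tead1 the difference was 2.84 kb with it and −3.01 kb without it, and for Yap1 1.66 and −0.487 kb.

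Whether the genotype difference changed with the day was tested across the 4 days on covered length. No member passed, with adjusted p from 0.0686 for Wwtr1 to 0.741 for Lats1 (exact permutation), although 17.1% of all genes, or 2605, did. Per covered Mb the same test called 15 genes and 0 members. No region of the 9 loci met a genotype pattern, a call in at least 10 of 12 libraries of one genotype and at most 2 of 12 of the other, where 0.0738% of all regions were held by WT in this way and 0.00472% by DKO.

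**Figure D4:**
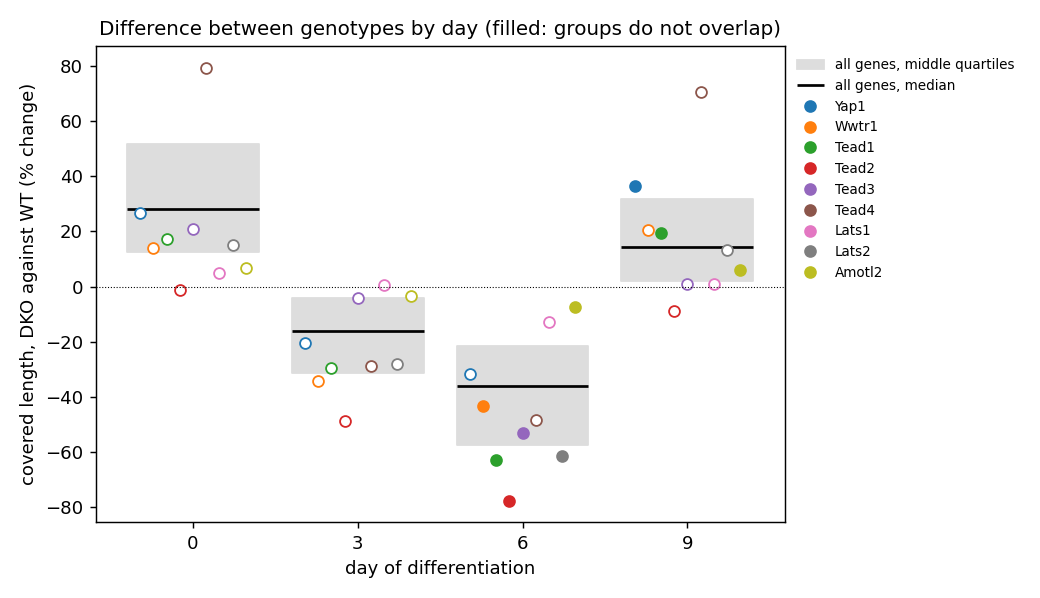
Percent difference in mean covered length, DKO against WT (y axis), at each day (x axis) for the 9 genes, filled where the 3 libraries of a genotype do not overlap those of the other, with the median (line) and middle quartiles (grey) of all genes with a WT peak. All 9 genes are below 0 at day 6, as is the whole grey band, and 8 of 9 are above 0 at day 9.

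Other genes of the pathway were taken from lists of 46 genes. Their counts stand against shares over all genes of 16.4% that rose and 14.8% that fell with day on covered length, 13.9% and 8.83% by q rank score, and 3.28% that were lower in DKO by that score. Of 16 upstream kinases and scaffolds, 1 gained covered length from day 0 to day 9 and 3 lost it, and by q rank score 2 rose and 0 fell. The gain was at Sav1, the scaffold of the MST kinases, with means of 1.8 kb at day 0 and 7.28 kb at day 9 over 6 libraries each, and its q rank score rose by 5.33 points (adjusted p = 0.0203 and 0.0278 by the exact permutation). Stk4, an MST kinase, had a difference of −3.56 kb, and the differences at the kinase Taok3 and at Wwc2 were −6.37 and −5.53 kb, although the q rank score of Wwc2 rose by 2.45 points (adjusted p = 0.0203 to 0.0481 on covered length and 0.0278 for the score, by the same exact test). Of 8 adaptors and cadherins, Amotl1 and Limd1 rose, by 1.67 and 4.37 kb, and the protocadherin Dchs1 fell by 2.72 kb (adjusted p = 0.0203 each by the exact permutation), and the score of Dchs1 fell by 11.9 points. Of the TEAD cofactors Vgll3 and Vgll4 did not pass and Vgll2 had no peak.

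Of 19 genes known as targets of YAP and TAZ, 2 rose on covered length from day 0 to day 9 and 8 fell, with a median of −0.216 kb against 0.0386 kb over all genes. By q rank score 1 of the 19, Igfbp3, rose and 2, Asap1 and Myof, fell, with a median of −0.388 points against 1.02 over all genes. Those that fell on covered length were Ccn2, a matricellular protein, from a mean of 3.1 to 0.992 kb, Asap1 from 54.7 to 21.3 kb, Crim1 from 11.7 to 4.7 kb, and Dock5, F3, Gadd45a, Arhgef17 and Myof, with differences from −6.24 to −0.612 kb. Igfbp3 and Nt5e rose by 1.94 and 2.06 kb (adjusted p = 0.0203 to 0.0481 for all 10 by the exact permutation). Between genotypes none of the 46 passed on covered length. By q rank score, 3 of the 19 targets were lower in DKO, Ccn1 by 3.12 points, the receptor kinase Axl by 12.1 and the cytokine Tgfb2 by 15.7, as was the adaptor Ajuba by 7.11 (adjusted p = 0.00927, 0.0182, 0.0465 and 0.0391 by the exact permutation). None of the upstream kinases or TEAD cofactors passed.

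Whether the 9 genes shared one course depended on the scale. Over the 36 pairs, the correlation of covered length across 24 libraries had a median of 0.711, with a range of 0.162 to 0.901. After division by the library total the median was −0.0285, with a range of −0.751 to 0.933. On the divided scale a locus of nearly constant length follows the divisor. Amotl2 had 14.5 to 19.1 kb in libraries that covered 20.7 to 96.4 Mb. The part of the divisor in these correlations was not tested. The genes whose course was most like that of Tead4 on the divided scale were Mepe, Prkce and Acaa1b (r = 0.963, 0.952 and 0.944 over 24 libraries), and those most like Yap1 were Sema4b, Syne2 and Acvr1c (0.914, 0.899 and 0.895). Wwtr1 was most like Magi1, Net1 and Negr1 (0.937, 0.929 and 0.924), Tead1 like Sh3rf1, Pef1 and Btbd16 (0.845, 0.838 and 0.831), and Tead2 like H2afy2, Tram2 and Zbtb12 (0.898, 0.869 and 0.869). Tead3 was most like Tpst2, Wnt16 and Kcnj2 (0.809, 0.804 and 0.796) and Lats2 like Crtc3, Phldb2 and Ddah1 (0.939, 0.931 and 0.918). Amotl2 was most like Hoxc10, Hoxc9 and Hoxc5 (0.996 each) and Lats1 like Pcbp1, Gm45234 and Hoxc8 (0.949, 0.947 and 0.946). The points of each correlation share libraries, groups and depth, and the values are a description.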

How the data were processed

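H3K27ac ChIP-seq (antibody ab4729 of Abcam, single reads of 75 bases) was analysed in 24 libraries, and the 16 input libraries were not analysed here. Per the study's methods and the submitters' processing notes, the authors trimmed reads with cutadapt 1.18, aligned them to mm10 with BWA and called narrow peaks in each library with MACS2 2.1.1.20160309. The deposited lists give per peak a fold over background (a ratio), −log10 p and −log10 q and a score, which is not used here. Read numbers per library are not in the lists. Whole reads at the summit and the local background were recovered from fold and p (99.7363% of peaks in WT day 3 replicate 3, 100% elsewhere, tolerance 0.001 on the log10 scale), and they give relative depth only.

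Loci were taken from GENCODE M21, and 15204 of 21938 protein-coding genes with covered length in at least 3 libraries were tested. Genotypes were compared by exact permutation within days (160000 relabellings, smallest p 1.25e-05) and day 9 with day 0 within genotype (400 relabellings, smallest p 0.005), with Benjamini-Hochberg adjustment over all tested genes and a threshold of 0.05. The code of the tests was first checked on simulated data, of which no value is given here. Python 3.11.15 with NumPy 2.4.6 and limma 3.58.1 in R 4.3.3 were used. The genes, lists and patterns were chosen with earlier results of these data known. Regions named in the text are those at a gene's own starts and up to 3 a gene and pattern by median rank, and likeness was the highest Pearson r outside the locus. Replicate numbers of the 2 genotypes did not mark a shared origin in the labels. Alternatives covered peak filters, peak widths, scaling, locus limits, left-out libraries, a replicate block, no gene filter and limma on log2(kb + 0.1).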

Additional observations from a re-analysis of the deposited data

Results flagged for a closer look

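Tead1 and Amotl2 were singled out because all 3 DKO libraries lay below all 3 WT libraries at day 6 and above them at day 9. Of all genes 59.6% were lower without overlap at day 6 and 29.3% higher at day 9, and the share with both was not counted. Per covered Mb neither gene was higher without overlap at day 9. The Tead1 gap at day 9 was narrow, from 20.361 kb in the highest WT library to 20.414 kb in the lowest DKO library. For Tead1 the difference in covered length, DKO minus WT, was −12 kb on the earlier of these days and 3.47 kb on the later. For Amotl2 the same differences were −1.26 and 1.02 kb. The change of the difference over the 4 days did not pass the test (exact permutation, adjusted p = 0.0961 for Tead1 and 0.0786 for Amotl2). The total covered length moved the same way, with 20.7 to 36.3 Mb in DKO against 55.5 to 60.4 Mb in WT at day 6 and 61.2 to 68.8 against 48.2 to 59.6 Mb at day 9, and its part in these differences was not tested.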

How the results depend on the processing

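Counts of members that passed moved as follows. For day 9 against day 0 on covered length (1 member, Tead4), 2 passed with −log10 q of at least 5 (Yap1 too), 0 with 20000 peaks per library, 5 per covered Mb, 2 without 1 kb around starts of other genes (Lats1 too) and 6 without DKO day 0 replicate 2. For most of these settings the share of all genes that passed is not given, so the counts are no result about the members. Between genotypes on covered length (0 members), 2 passed per covered Mb. The q rank call of Tead3 between genotypes was lost, leaving 0, without DKO day 0 replicate 2 or WT day 3 replicate 3. The 5 q rank calls with day remained 5 without DKO day 0 replicate 2, and Wwtr1 lost its call without the 5 kb upstream, leaving 4. Leaving out each replicate number in turn gave 0 to 0 calls in all 4 comparisons, where the day test cannot pass (smallest p 0.0556).

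Of 12 same-numbered pairs of libraries, 4 correlated above 0.1 (range −0.837 to 0.898). These were of day 0 (0.831 and 0.784) and day 3 (0.898 and 0.661), and all other pairs correlated negatively. So few pairs cannot decide whether replicate numbers pair the libraries. With the replicate block 0 members and 0 of all genes passed in each of the 4 comparisons (smallest p 0.000488 for genotype and 0.0312 for day).

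Members lower in DKO without overlap at day 6 (6) became 2 with 250 bp either side of the summits and 2 per covered Mb, and 6 to 9 without single replicates. Members higher at day 9 (3) became 1 with −log10 q of at least 5, 5 with 250 bp windows, 1 per covered Mb, 1 without the upstream 5 kb, and 3 to 6 without single replicates. The change of the genotype difference with the day (0 members) called 1 with −log10 q of at least 5 (Yap1), 1 without DKO day 0 replicate 2 (Amotl2) and 1 without WT day 3 replicate 3 (Wwtr1), and 0 to 1 over all omissions. The 195 regions became 34 with 20000 peaks per library. The day 9 pattern (7 regions) was met by 2 with 20000 peaks, 13 without DKO day 0 replicate 2 and 13 to 21 without single replicates, the day 0 pattern (1) by 0 without that library and 3 to 8 without single replicates, and the genotype pattern (0) by 0 to 3. Without a replicate the patterns were relaxed to all but 1 (day) or all but 2 (genotype) libraries. For most of these settings the shares of all genes or all regions are not given here. The counts are therefore no result about the members.

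Of differences that changed sign none had passed. Between genotypes on covered length these were, in kb, Tead1 0.143, Tead2 0.0123, Lats1 0.00925 and Amotl2 −0.031 with 20000 peaks, Yap1 −0.328, Tead4 −0.0454 and Lats1 0.0417 with 250 bp windows, Lats1 0.0619 and Amotl2 −0.291 without the upstream 5 kb, and Yap1 −0.226 and Amotl2 −0.247 without DKO day 0 replicate 2. Lats1 was 5.98 bp per covered Mb, and limma gave Yap1 −0.0466 and Tead4 −0.177 on log2(kb + 0.1). Over omissions Yap1 ran from −0.455 to 0.937 kb, Lats1 from −0.185 to 0.0621 and Amotl2 from −0.247 to 0.365. With day, Tead1 was −0.402 kb with 20000 peaks and −0.705 to 5.24 kb over omissions, Amotl2 −0.418 kb with 250 bp windows, and the q rank change of Lats2 −0.667 to 1.84 points over omissions. The causes were not tested.

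Over all genes, the 23 genotype calls on covered length became 10 with −log10 q of at least 5, 13 with 20000 peaks, 157 with 250 bp windows, 2262 per covered Mb, 37 without the upstream 5 kb, 207 without DKO day 0 replicate 2, 39 without WT day 3 replicate 3, 72 with limma, and 0 without any one replicate number. The 4741 day calls (52.5% higher) became 1292 with 20000 peaks and 2269 (72.5% higher) with 250 bp windows.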
